A study of Mus musculus with 32 samples.

Results

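Collagens are the main structural proteins of the extracellular matrix, and each is built from 3 chains that are encoded by a large gene family. The fibrillar collagens (types I, II, III, V, XI, XXIV and XXVII) form the fibrils of connective tissue and cartilage. Type IV collagen forms the network of basement membranes, which in the brain surrounds blood vessels and lines the meninges, and other types bind to fibrils, form networks or cross the cell membrane. Normal brain tissue has little fibrillar matrix away from vessels and meninges. All genes whose symbol in the deposited matrix has the form Col, a number, a and a number were taken as members. This gave 38 genes on 40 probe sets, out of 17297 features (named genes and unnamed probe sets) on 18328 probe sets. Of the 38 genes, 11 encode fibrillar chains, 6 type IV chains and 21 other chains: 9 fibril associated, 4 network and anchoring, 4 transmembrane, 2 multiplexin and 2 type VI (beaded filament).

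The series measured gene expression in mouse gliomas and normal brain on 32 Affymetrix mouse genome arrays, 22 of gliomas and 10 of controls. The gliomas were of 3 models. The 9 cis p53/Nf1 gliomas had the genotype hGFAP-cre;p53KO/+;Nf1+/flox and were compared with 3 normal forebrains of the same array set, which the labels call Z1. The 9 p53 gliomas (hGFAP-cre;p53flox/flox) and the 4 p53 Nf1KO gliomas (hGFAP-cre;p53flox/flox;Nf1KO/+, which add a germline Nf1 mutation) were compared with the 4 normal forebrains of set Z2, so that these comparisons share their controls. Set Z2 also held 3 normal cerebella, which enter the fit and no comparison. All gliomas carry Cre under the human GFAP promoter, which is active in neural stem and progenitor cells and astroglia. The controls are wild-type brain tissue, and ages and pooling are not given in the labels. Whether arrays labelled as replicates came from separate animals is not stated, so that the p-values measure the spread between these arrays.

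Values are log2 expression values, 1 unit being a 2-fold difference, and every difference is glioma minus forebrain of its own set. A gene was called when its Benjamini-Hochberg adjusted p in limma, over all 17297 features, was under 0.05. Counts of genes that rose or fell are counts of genes called higher or lower. A gene that was not called is not shown to be unchanged. The median array value was 8.48 to 8.57 in Z1 but 6.90 to 7.06 in Z2, so levels are not compared between sets, and levels of different genes are not compared at all. Neuron markers and markers of glioma and cycling cells served as a check of the tissue: all 8 neuron markers fell in the cis p53/Nf1 model, 6 did in the p53 model and 0 in the p53 Nf1KO model, while 6, 6 and 5 of the 6 glioma and cycling cell markers rose. In the p53 Nf1KO model all 8 neuron marker differences were negative, from -1.31 to -0.17, and uncalled. The array of p53 glioma 1 stood apart. The mean of the neuron markers in p53 glioma 1 was 11.14, the highest of its group and inside the Z2 forebrain range of 10.67 to 11.24, and its glioma and cycling cell marker mean was 6.86, against 9.31 to 10.57 in the other p53 gliomas. Because of these markers, results on p53 gliomas are given with and without p53 glioma 1. It also held the lowest value of its group for 22 of the 38 collagen genes, against 21.6% of all features. Leaving it out thus raises the differences of those genes by construction, and the collagen counts without it are no separate support. The neuron marker means of p53 Nf1KO gliomas 1 to 4 were 10.66, 10.82, 9.83 and 9.77, so that glioma 2 also lay inside the forebrain range and glioma 1 at its edge. Their glioma and cycling cell marker means were 9.68, 8.58, 9.33 and 10.27, above both the 6.86 of p53 glioma 1 and the 5.87 to 6.33 of Z2 forebrains. In bulk tissue, fewer cells of a type and less RNA per cell cannot be told apart.

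Part of the collagen family was higher in each glioma model. In the cis p53/Nf1 gliomas 7 of 38 genes rose and 1 fell, in a background of 21.9% of all features higher and 20.3% lower. For p53 gliomas 17 rose and 3 fell, in a background of 17.7% higher and 20.6% lower. Without p53 glioma 1 these counts were 21 and 3, in a background of 20.4% and 23.5%. In the p53 Nf1KO gliomas 4 rose and 0 fell, in a background of 5.23% higher and 3.04% lower. The share of collagen genes that rose was thus 18.4% for the cis p53/Nf1 model, near its background, 44.7% for the p53 model and 10.5% for the p53 Nf1KO model. The p53 Nf1KO count was 2 when any 1 Z2 forebrain, or p53 Nf1KO glioma 3 or 4, was left out, and it was 6 without glioma 2, where the 4 calls were kept and Col20a1 and Col9a2 were gained. The median difference over the 38 genes was 0.47 (cis p53/Nf1), 1.15 (p53) and 0.65 (p53 Nf1KO), beside medians over all features of -0.00, -0.04 and -0.07. Leaving out p53 glioma 1 gave a p53 median of 1.21. Counting genes whose arrays did not overlap with forebrain, 5 were above and 1 below for the cis p53/Nf1 model (17.9% and 17.8% of all features), 4 and 0 for p53 (5.2% and 4.59%) and 7 and 1 for p53 Nf1KO (10.1% and 10.5%). Without p53 glioma 1, 14 genes lay above all Z2 forebrains and 0 below, against 13.4% and 14.5% of all features.

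**Figure D1:**
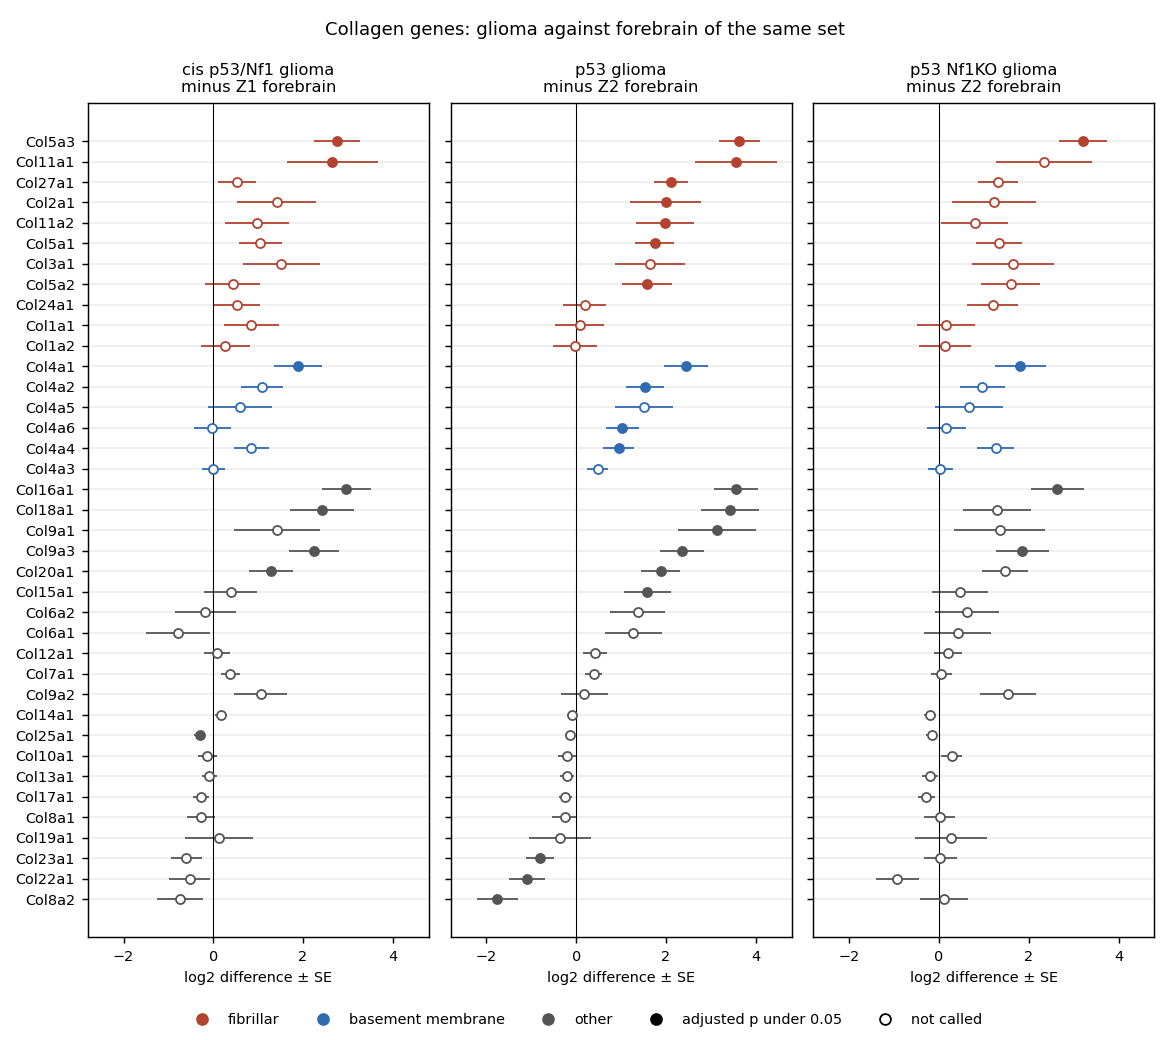
The log2 difference of each of the 38 collagen genes from forebrain of the same set, with its standard error, in cis p53/Nf1 (left), p53 (middle) and p53 Nf1KO gliomas (right). Genes are grouped as fibrillar (red), basement membrane (blue) and other (grey), and filled points have an adjusted p under 0.05. Col5a3, Col16a1, Col4a1 and Col9a3 are filled and positive in all 3 panels, while Col1a1 and Col1a2 are open and near 0 in the p53 panel.

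By class, the fibrillar genes leaned upward: the difference was positive for all 11 in the cis p53/Nf1 and p53 Nf1KO models and for 10 of 11 in the p53 model, with medians of 0.98 (cis p53/Nf1), 1.32 (p53 Nf1KO) and 1.75 (p53). Of these genes 2 rose in the cis p53/Nf1 model, 7 in the p53 model and 1 in the p53 Nf1KO model, and 0 fell. These are 18.2%, 63.6% and 9.09% of the class, beside 21.9%, 17.7% and 5.23% of all features that rose. Of the 6 type IV genes, 1, 4 and 1 rose in the same order of models and 0 fell, with medians of 0.71, 1.27 and 0.82. The shares that rose were 16.7%, 66.7% and 16.7%. Of the 21 other genes, 4 rose and 1 fell in the cis p53/Nf1 model, 6 rose and 3 fell in the p53 model, and 2 rose in the p53 Nf1KO model, and their median differences were 0.09, 0.18 and 0.26. The shares that rose were 19%, 28.6% and 9.52%, while 20.3% and 20.6% of all features fell in the first 2 models. In the cis p53/Nf1 model each class thus lay below the share of all features that rose. Without p53 glioma 1, 8 fibrillar, 6 type IV and 7 other genes rose and 3 others fell in the p53 gliomas. Of all features 20.4% rose and 23.5% fell in that fit. The 4 transmembrane genes (Col13a1, Col17a1, Col23a1 and Col25a1) had negative differences in cis p53/Nf1 and p53 gliomas, of which Col25a1 in the first and Col23a1 in the second passed the test. Among p53 Nf1KO gliomas 3 of the 4 were negative and Col23a1 was 0.02. Col17a1, Col25a1, Col13a1 and Col23a1 lay among the lowest 25% of features on 32, 18, 15 and 3 of the 32 arrays. Low values thus limit what the signs of the first 3 show. Over all features the signs were about even in the cis p53/Nf1 model, while 54.2% were negative in the p53 model and 58.1% in the p53 Nf1KO model.

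The genes called in all 3 models were 4: Col5a3, Col16a1, Col4a1 and Col9a3. The p53 and p53 Nf1KO comparisons share their forebrains, so these are not 3 separate tests. Promoter sequences are shown for Col5a3, Col16a1 and Col4a1, and for Col4a2, whose start lies beside that of Col4a1 on the opposite strand. Each window runs from 250 bases before to 50 bases after the start, read 5′ to 3′ on the strand of the gene. Capitals mark matches on either strand to the CCAAT box (CCAAT), the GC box (GGGCGG) and the TATA box (TATAAA), and none of these matches overlaps another. The Col4a1 window is chr8:11312777-11313076 (minus strand), the Col4a2 window chr8:11312555-11312854 (plus), the Col5a3 window chr9:20815018-20815317 (minus) and the Col16a1 window chr4:130047590-130047889 (plus), all in RefSeq's GRCm38.p6.
Col4a1: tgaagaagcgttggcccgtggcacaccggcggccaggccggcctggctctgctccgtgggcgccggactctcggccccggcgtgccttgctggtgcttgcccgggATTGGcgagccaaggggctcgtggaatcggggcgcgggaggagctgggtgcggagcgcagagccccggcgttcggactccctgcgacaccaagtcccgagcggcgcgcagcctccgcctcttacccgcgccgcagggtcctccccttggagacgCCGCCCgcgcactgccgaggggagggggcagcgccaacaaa
Col4a2: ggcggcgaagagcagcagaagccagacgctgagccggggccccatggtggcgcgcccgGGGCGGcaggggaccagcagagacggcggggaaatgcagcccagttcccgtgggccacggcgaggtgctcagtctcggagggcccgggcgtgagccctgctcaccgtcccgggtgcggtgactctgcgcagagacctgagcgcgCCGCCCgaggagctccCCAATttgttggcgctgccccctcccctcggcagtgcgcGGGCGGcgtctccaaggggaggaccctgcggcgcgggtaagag
Col5a3: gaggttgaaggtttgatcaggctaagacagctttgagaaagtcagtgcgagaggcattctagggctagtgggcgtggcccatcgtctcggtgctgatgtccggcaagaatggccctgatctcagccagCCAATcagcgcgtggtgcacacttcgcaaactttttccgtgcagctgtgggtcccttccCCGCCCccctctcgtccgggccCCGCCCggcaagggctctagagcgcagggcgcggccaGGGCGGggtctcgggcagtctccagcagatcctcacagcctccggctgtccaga
Col16a1: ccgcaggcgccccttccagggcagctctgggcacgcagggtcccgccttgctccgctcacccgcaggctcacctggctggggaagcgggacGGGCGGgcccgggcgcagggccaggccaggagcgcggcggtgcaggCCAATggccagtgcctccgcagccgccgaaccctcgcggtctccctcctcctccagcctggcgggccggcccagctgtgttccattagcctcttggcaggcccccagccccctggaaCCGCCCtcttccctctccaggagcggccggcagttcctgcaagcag
The Col4a1 and Col4a2 windows share 78 bases, each written on its own strand, so the GC box match in the shared bases appears in both. The GC box was found 1 time in the Col4a1 window, 3 times in that of Col4a2, 3 times in that of Col5a3 and 2 times in that of Col16a1, the CCAAT box 1 time in each, and the TATA box and the SOX motif (ACAAAG) in none. Among 32851 promoter windows of this length 37.4% hold CCAAT, 35.7% GGGCGG, 13.6% TATAAA and 18.7% ACAAAG on either strand, and of 33 windows of 30 matched collagen genes 12 hold CCAAT, 20 GGGCGG, 5 TATAAA and 4 ACAAAG. A match describes the letters and is not evidence of binding.

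Col5a3 encodes a chain of type V collagen, a fibrillar collagen that takes part in fibril assembly. Its values lay between 9.93 and 11.18 with a median of 10.32 in cis p53/Nf1 gliomas, and were 7.80, 7.52 and 7.54 in Z1 forebrains. They lay between 5.03 and 9.20 with a median of 7.96 in p53 gliomas and were 6.63, 6.81, 7.45 and 8.33 in p53 Nf1KO gliomas, against 4.14, 3.65, 4.60 and 3.98 in Z2 forebrains. Every glioma of each model lay above every forebrain of its set, p53 glioma 1 included. The difference was 2.76 ± 0.51 (SE, adjusted p = 7.01e-05) for the cis p53/Nf1 model, 3.64 ± 0.46 (SE, adjusted p = 3.12e-06) for p53 and 3.21 ± 0.54 (SE, adjusted p = 5.91e-04) for p53 Nf1KO. With glioma 1 left out, the p53 difference was 3.98 ± 0.34.

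Col16a1 encodes a fibril associated chain. Its values lay between 10.59 and 12.41 with a median of 12.10 in cis p53/Nf1 gliomas and were 9.02, 8.92 and 8.95 in Z1 forebrains. In p53 gliomas they lay between 6.35 and 10.78 with a median of 9.56 and in p53 Nf1KO gliomas they were 7.66, 7.60, 8.81 and 9.31, against 5.55, 5.12, 6.60 and 5.56 in Z2 forebrains. The cis p53/Nf1 and p53 Nf1KO gliomas did not overlap with forebrain, and in p53 gliomas only glioma 1, at 6.35, lay within the forebrain range. The differences were 2.97 ± 0.55 (SE, adjusted p = 7.75e-05), 3.56 ± 0.50 (SE, adjusted p = 9.82e-06) and 2.64 ± 0.58 (SE, adjusted p = 0.00644) for the cis p53/Nf1, p53 and p53 Nf1KO models, and 3.93 ± 0.36 without p53 glioma 1.

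Col4a1 and Col4a2 encode the 2 chains that make up the most widespread type IV collagen of basement membranes. Col4a1 lay between 9.57 and 12.42 with a median of 11.13 in cis p53/Nf1 gliomas and at 8.96, 9.63 and 9.31 in Z1 forebrains. It lay between 7.47 and 11.19 with a median of 10.07 in p53 gliomas and at 9.32, 9.14, 9.23 and 9.07 in p53 Nf1KO gliomas, against 7.03, 6.86, 7.81 and 7.80 in Z2 forebrains. The differences of Col4a1 were 1.89 ± 0.54 (SE, adjusted p = 0.00543), 2.45 ± 0.49 (SE, adjusted p = 4.26e-04) and 1.81 ± 0.57 (SE, adjusted p = 0.0463), with 2.74 ± 0.41 in p53 gliomas without glioma 1. In cis p53/Nf1 gliomas 1 glioma reached into the forebrain range, glioma 5 at 9.57, and in p53 gliomas glioma 1 at 7.47. The Col4a1 call in p53 Nf1KO gliomas was lost when any 1 Z2 forebrain, or p53 Nf1KO glioma 1, 3 or 4, was left out. Col4a2 lay between 8.64 and 11.49 with a median of 10.32 in cis p53/Nf1 gliomas, against 8.84, 9.45 and 9.38 in Z1 forebrains. In p53 gliomas it lay between 9.12 and 12.01 with a median of 11.02 and in p53 Nf1KO gliomas at 10.31, 10.62, 10.11 and 9.67, against 8.80, 8.76, 9.62 and 9.67 in Z2 forebrains. Its differences were smaller: 1.09 ± 0.48 (SE, adjusted p = 0.0676) for cis p53/Nf1, 1.53 ± 0.43 (SE, adjusted p = 0.00629) for p53 and 0.97 ± 0.50 (SE, adjusted p = 0.224) for p53 Nf1KO, so that it was called in p53 gliomas, where it was 1.74 ± 0.40 without glioma 1. Of the other type IV chains, Col4a4 (0.95 ± 0.35) and Col4a6 (1.03 ± 0.37) also rose in p53 gliomas, and Col4a3 and Col4a5 passed the test there only when glioma 1 was left out (adjusted p = 0.104 and 0.0635 with it, 0.0273 and 0.0348 without it).

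Col9a3, a chain of the fibril associated type IX collagen, lay between 8.40 and 11.34 with a median of 9.44 in cis p53/Nf1 gliomas and at 7.16, 7.10 and 7.80 in Z1 forebrains. It lay between 6.94 and 10.41 with a median of 9.68 in p53 gliomas and at 8.64, 8.14, 9.70 and 9.61 in p53 Nf1KO gliomas, against 6.82, 6.48, 7.76 and 7.61 in Z2 forebrains. Only p53 glioma 1, at 6.94, failed to exceed all forebrains of its set. The differences were 2.24 ± 0.55 (SE, adjusted p = 0.00158), 2.36 ± 0.50 (SE, adjusted p = 7.57e-04) and 1.86 ± 0.59 (SE, adjusted p = 0.0468), and 2.68 ± 0.41 in p53 gliomas without glioma 1. The p53 Nf1KO call of Col9a3 was lost without the same arrays as that of Col4a1. A separate probe set that the file assigns to both Col9a3 and Tcfl5, and that the rule leaves out, differed by 4.48, 2.46 and 2.91 in the 3 models.

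Col11a1, Col18a1 and Col20a1 rose in cis p53/Nf1 and p53 gliomas. Col18a1 encodes a multiplexin of basement membranes, whose C-terminal fragment is endostatin. It lay between 8.82 and 11.11 with a median of 9.33 in cis p53/Nf1 gliomas, above the 7.31, 7.50 and 7.32 of Z1 forebrains, with a difference of 2.43 ± 0.71 (SE, adjusted p = 0.00655). In p53 gliomas it lay between 5.82 and 10.77 with a median of 9.26 and in p53 Nf1KO gliomas at 6.12, 6.37, 7.62 and 7.91, against 6.21, 5.06, 6.05 and 5.53 in Z2 forebrains. The p53 difference was 3.43 ± 0.64 (SE, adjusted p = 2.40e-04), or 3.85 ± 0.52 without glioma 1, and that of p53 Nf1KO gliomas 1.29 ± 0.75 (SE, adjusted p = 0.279). Only glioma 1 of the p53 gliomas and glioma 1 of the p53 Nf1KO gliomas reached into the forebrain range of Col18a1. Col11a1, a fibrillar chain best known from cartilage, spread widely: it lay between 6.69 and 11.80 with a median of 9.43 in cis p53/Nf1 gliomas, against 6.13, 6.48 and 7.34 in Z1 forebrains. It lay between 4.97 and 11.15 with a median of 8.67 in p53 gliomas and at 6.55, 6.66, 8.65 and 7.99 in p53 Nf1KO gliomas, against 4.63, 4.49, 5.56 and 5.84 in Z2 forebrains. Its differences were 2.65 ± 1.01 (SE, adjusted p = 0.0345), 3.56 ± 0.91 (SE, adjusted p = 0.00328) and 2.33 ± 1.07 (SE, adjusted p = 0.166), with 4.02 ± 0.82 in p53 gliomas without glioma 1. The cis p53/Nf1 call of Col11a1 was lost without glioma 2, 3 or 4 or without any 1 Z1 forebrain. Col20a1, a fibril associated chain, differed by 1.28 ± 0.48, 1.89 ± 0.44 and 1.47 ± 0.51, and its other probe set by 2.68, 3.41 and 2.66. Its first 2 differences passed, the cis p53/Nf1 one not without glioma 3 or any 1 Z1 forebrain, and without p53 glioma 1 the p53 value was 2.10 ± 0.40.

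The classical interstitial collagens did not pass the test in any model. Type I collagen, encoded by Col1a1 and Col1a2, and type III, encoded by Col3a1, form the fibrils of most connective tissue. Col1a1 lay between 6.44 and 10.73 with a median of 7.53 in cis p53/Nf1 gliomas and at 7.06, 7.36 and 7.13 in Z1 forebrains. It lay between 6.11 and 8.51 with a median of 6.99 in p53 gliomas and at 6.59, 7.58, 7.69 and 7.78 in p53 Nf1KO gliomas, against 7.21, 8.13, 7.33 and 6.35 in Z2 forebrains. All groups overlapped with forebrain, and the differences were 0.84 ± 0.61 (SE, adjusted p = 0.288), 0.08 ± 0.55 (SE, adjusted p = 0.928) and 0.16 ± 0.65 (SE, adjusted p = 0.906). Col1a2 lay between 7.12 and 10.92 with a median of 7.98 in cis p53/Nf1 gliomas, against 8.13, 8.15 and 8.31 in Z1 forebrains. It lay between 6.96 and 9.16 with a median of 7.82 in p53 gliomas and at 7.10, 8.15, 8.84 and 8.43 in p53 Nf1KO gliomas, against 8.38, 8.85, 7.94 and 6.80 in Z2 forebrains, and its differences of 0.27 ± 0.55, -0.03 ± 0.49 and 0.14 ± 0.58 were smaller than their errors. Leaving out single arrays turned the sign of the small Col1a1 and Col1a2 differences in both Z2 models, and that of Col1a2 in cis p53/Nf1 gliomas. Col3a1 lay between 5.70 and 11.91 with a median of 8.30 in cis p53/Nf1 gliomas and at 6.55, 6.79 and 7.92 in Z1 forebrains. In p53 gliomas it lay between 5.35 and 9.89 with a median of 7.67, in p53 Nf1KO gliomas at 6.82, 7.19, 8.81 and 8.02, against 7.17, 5.06, 6.90 and 5.12 in Z2 forebrains. Its differences were 1.52 ± 0.86 (SE, adjusted p = 0.166), 1.65 ± 0.78 (SE, adjusted p = 0.0937) and 1.64 ± 0.91 (SE, adjusted p = 0.254), and it passed the test in p53 gliomas without glioma 1, at 1.94 ± 0.75 (adjusted p = 0.0365).

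**Figure D2:**
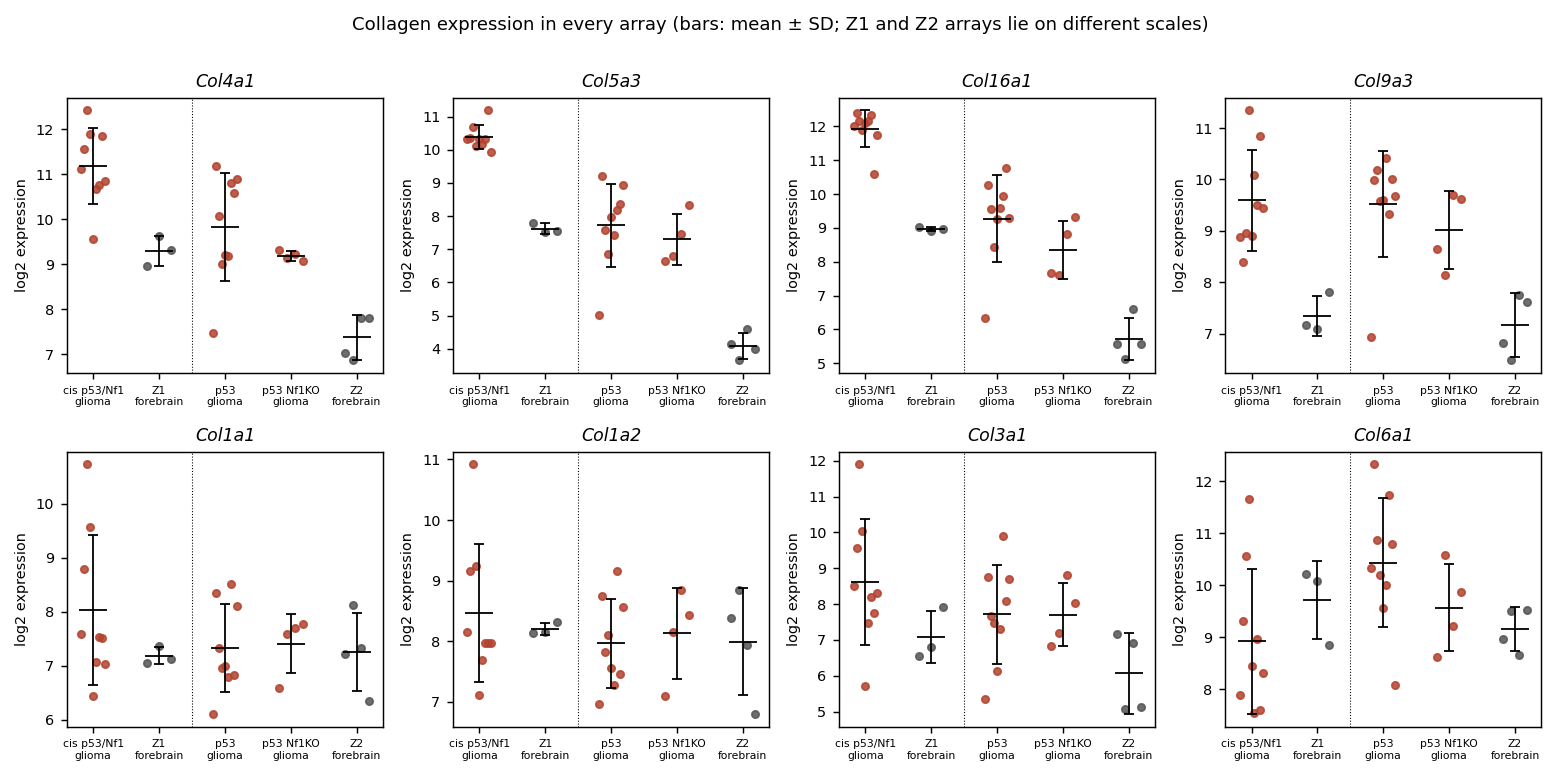
The log2 expression of 8 collagen genes in every array of the 3 glioma models (red) and their forebrains (grey), with the mean ± SD of each group. Each glioma group stands left of its forebrains, and a dotted line divides set Z1 from set Z2, whose scales differ. In the upper row (Col4a1, Col5a3, Col16a1 and Col9a3) gliomas lie mostly above forebrain, and in the lower row (Col1a1, Col1a2, Col3a1 and Col6a1) the groups overlap.

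Of 12 markers of fibroblasts and meninges, the cells that make most interstitial collagen, 0 rose in any model. The markers that fell were 5 in the cis p53/Nf1 model, 4 in the p53 model and 2 in the p53 Nf1KO model. The p53 count was again 4 without glioma 1. In p53 Nf1KO gliomas 7 of the 12 differences were positive, with a median of 0.24. Over all features 21.9% rose and 20.3% fell in the cis p53/Nf1 model, 17.7% and 20.6% in the p53 model, and 5.23% and 3.04% in the p53 Nf1KO model. The mean over this list was 7.05 to 8.52 in cis p53/Nf1 gliomas, against 8.27 to 9.02 in Z1 forebrains. It was 5.29 to 7.68 in p53 gliomas and 7.17 to 7.94 in p53 Nf1KO gliomas, against 6.90 to 8.38 in Z2 forebrains. Among endothelial markers 1 of 12 rose and 2 fell in cis p53/Nf1 and in p53 gliomas, and 0 were called in p53 Nf1KO gliomas. Among pericyte and smooth muscle markers 1 of 11 rose in each model, 2 fell in cis p53/Nf1 and 1 in p53 gliomas, with 2 rising in p53 gliomas without glioma 1. The endothelial and pericyte counts lie near or below the shares of all features. Of 6 choroid plexus markers 0 rose in any model, and 1 fell in cis p53/Nf1 and 5 in p53 gliomas. The values carry no detection calls. Of these markers Foxc2 and Twist1 of the fibroblast and meninges list and Myh11 of the pericyte list lay among the lowest 25% of features on every cis p53/Nf1 and Z1 array, and Ogn and Slc22a6 on every cis p53/Nf1 array. The part of these cell types in the collagen results was not tested.

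Type VI collagen, which forms beaded filaments around cells, gave wide and uncalled values. Col6a1 lay between 7.54 and 11.66 with a median of 8.45 in cis p53/Nf1 gliomas, against 10.21, 10.09 and 8.85 in Z1 forebrains, with a difference of -0.79 ± 0.71 (SE, adjusted p = 0.404). It lay between 8.07 and 12.34 with a median of 10.34 in p53 gliomas and at 8.62, 10.58, 9.22 and 9.87 in p53 Nf1KO gliomas, against 8.96, 9.50, 8.65 and 9.52 in Z2 forebrains. The differences were 1.28 ± 0.64 (SE, adjusted p = 0.115) and 0.41 ± 0.75 (SE, adjusted p = 0.76). The cis p53/Nf1 change minus the p53 change in Col6a1 was -2.07 (95% interval -4.02 to -0.12), with an adjusted p of 0.287 over all features. Col6a2 differed by -0.17 ± 0.68, 1.37 ± 0.61 and 0.62 ± 0.72, and rose in p53 gliomas without glioma 1 (adjusted p = 0.0422).

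In the p53 gliomas 10 further genes rose: Col2a1, Col5a1, Col5a2, Col11a2 and Col27a1 among the fibrillar genes, Col4a2, Col4a4 and Col4a6 among the type IV genes, and Col9a1 and Col15a1. Col9a1, another chain of type IX collagen, lay between 4.15 and 9.60 with a median of 6.71 in p53 gliomas, while Z2 forebrains were nearly constant at 3.76, 3.75, 3.80 and 3.77. All 9 p53 gliomas lay above these forebrains, with a difference of 3.14 ± 0.86 (SE, adjusted p = 0.00551), or 3.49 ± 0.82 without glioma 1. In p53 Nf1KO gliomas Col9a1 was 3.93, 3.68, 8.49 and 4.41 and differed by 1.35 ± 1.01 (SE, adjusted p = 0.407). In cis p53/Nf1 gliomas it lay between 8.12 and 13.04 with a median of 8.95, all above the 8.03, 7.61 and 7.83 of Z1 forebrains, with a difference of 1.42 ± 0.96 (SE, adjusted p = 0.253). The other 6 that were not yet given differed in p53 gliomas by 2.11 ± 0.38 (Col27a1), 1.99 ± 0.79 (Col2a1), 1.98 ± 0.64 (Col11a2), 1.75 ± 0.43 (Col5a1), 1.59 ± 0.53 (Col15a1) and 1.58 ± 0.56 (Col5a2), and their adjusted p ran from 1.68e-04 to 0.0473. Without glioma 1 they were 2.32 ± 0.34, 2.19 ± 0.80, 2.28 ± 0.59, 1.98 ± 0.39, 1.79 ± 0.51 and 1.71 ± 0.56 in the same order, and all 6 were called. Col2a1 is the least secure of them, its call being lost when p53 glioma 2, 3, 6 or 7 or any 1 Z2 forebrain was left out. Col4a4 was lost without any 1 Z2 forebrain or without p53 glioma 6, 8 or 9, Col4a6 and Col5a2 without Z2 forebrain 2 or 4, and Col15a1 without Z2 forebrain 1 or 2.

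Few collagen genes were lower. Col8a2, a chain of the network-forming type VIII collagen, lay between 3.13 and 6.05 with a median of 4.11 in p53 gliomas, against 6.53, 5.28, 6.35 and 6.45 in Z2 forebrains, a difference of -1.76 ± 0.46 (SE, adjusted p = 0.00383), or -1.72 ± 0.47 without glioma 1. In p53 Nf1KO gliomas Col8a2 was 6.53, 7.54, 6.50 and 4.47, with a difference of 0.11 ± 0.54 (SE, adjusted p = 0.92), and in cis p53/Nf1 gliomas it lay between 5.43 and 6.40 with a median of 5.64, against 7.06, 6.50 and 5.87 in Z1 forebrains, with -0.75 ± 0.51 (SE, adjusted p = 0.259). The choroid plexus marker mean was read beside Col8a2 in the Z2 set. It was 3.87 to 5.43 in p53 gliomas and 8.04, 8.37, 7.83 and 5.12 in p53 Nf1KO gliomas 1 to 4, against 6.34, 5.11, 8.36 and 8.10 in Z2 forebrains 1 to 4. Glioma 4 of the p53 Nf1KO model and Z2 forebrain 2, each lowest of their group for that mean, were also lowest for Col8a2. Other arrays did not follow this order. Z2 forebrain 1 held the highest Col8a2 of its group, 6.53, with a marker mean of 6.34. For p53 glioma 4, Col8a2 was the group's highest at 6.05, with a marker mean of 4.83. The part of choroid plexus tissue in the Col8a2 differences was not tested. Col22a1, a fibril associated chain, lay between 3.70 and 6.88 with a median of 5.18 in p53 gliomas, against 6.23, 7.0, 5.15 and 6.04 in Z2 forebrains, a difference of -1.10 ± 0.41 (SE, adjusted p = 0.0351), or -1.33 ± 0.36 without glioma 1. The other probe set of Col22a1 differed by -0.26 in p53 gliomas. In cis p53/Nf1 gliomas Col22a1 differed by -0.53 ± 0.46 and in p53 Nf1KO gliomas by -0.93 ± 0.48, both uncalled. Col23a1, a transmembrane chain, lay between 4.15 and 5.76 with a median of 5.10 in p53 gliomas, against 6.79, 5.07, 5.58 and 5.43 in Z2 forebrains, a difference of -0.80 ± 0.31 (SE, adjusted p = 0.0425), or -0.91 ± 0.31 without glioma 1, and was uncalled in cis p53/Nf1 (-0.60 ± 0.35) and p53 Nf1KO gliomas (0.02 ± 0.37). Col25a1, a transmembrane chain first described in amyloid plaques, lay between 8.07 and 8.57 with a median of 8.26 in cis p53/Nf1 gliomas, against 8.77, 8.55 and 8.36 in Z1 forebrains. It fell there by 0.31 ± 0.11 (SE, adjusted p = 0.028), and was uncalled in p53 (-0.14 ± 0.10) and p53 Nf1KO gliomas (-0.16 ± 0.12). The arrays of glioma and forebrain overlapped for all 4 of these calls, while Col22a1 lay below every Z1 forebrain in all 9 cis p53/Nf1 gliomas, uncalled. Without Z2 forebrain 1 or 4, or p53 glioma 2 or 6, 1 of the 3 lower calls in p53 gliomas was left, and without Z1 forebrain 1 or 2 the Col25a1 call was lost.

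Of the 12 uncalled genes not yet described in all models, Col10a1, Col12a1, Col13a1, Col14a1, Col17a1, Col7a1 and Col8a1 had differences between -0.28 and 0.43 in every model, and Col14a1 and Col17a1 lay among the lowest 25% of all features on all 32 arrays. The group difference hides 1 high array for Col10a1: p53 Nf1KO glioma 1 was at 6.12, while gliomas 2 to 4 were at 4.34, 4.24 and 4.39. Col4a3 and Col4a5, given above for p53 gliomas, differed by -0.00 and 0.59 in cis p53/Nf1 and by 0.03 and 0.67 in p53 Nf1KO gliomas. Col9a2, the remaining type IX chain, differed by 1.06 ± 0.59, 0.18 ± 0.53 and 1.53 ± 0.62, Col24a1, a fibrillar chain, by 0.52 ± 0.53, 0.19 ± 0.48 and 1.19 ± 0.56, and Col19a1, a fibril associated chain, by 0.13 ± 0.76, -0.36 ± 0.68 and 0.26 ± 0.81, in cis p53/Nf1, p53 and p53 Nf1KO gliomas. Col19a1 ran from 5.75 to 9.76 over the 9 cis p53/Nf1 gliomas, while its Z1 forebrains were 7.95, 8.18 and 8.03. A probe set that the file assigns to Col6a3 and another locus, and that the rule leaves out, differed by 0.11, 1.49 and 0.23 in the 3 models.

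The models were then compared with each other. Comparisons of a change in set Z1 with a change in set Z2 are limited by the unlike spread of the sets. Between p53 Nf1KO and p53 gliomas, which were measured in the same set, 0 of 38 collagen genes passed the test in limma, in a background of 0.145% of all features. At an unadjusted p under 0.05, 10 of the 38 differed, in a background of 12.5%. Col8a2, whose values followed the choroid plexus marker mean in some arrays and not in others, was 1.87 higher in p53 Nf1KO gliomas (95% interval 0.93 to 2.81, limma adjusted p = 0.1). Col18a1 differed by -2.14 (95% interval -3.45 to -0.83, limma adjusted p = 0.189). Leaving out p53 glioma 4, p53 glioma 5 or p53 Nf1KO glioma 4 also brought Col8a2 past the test, at 2.04 to 2.46. Without p53 glioma 1 both passed, Col8a2 at 1.83 ± 0.47 (adjusted p = 0.0374) and Col18a1 at -2.55 ± 0.52 (adjusted p = 0.0108), in a background of 2.62%. The change from forebrain in cis p53/Nf1 gliomas minus that in p53 gliomas was called for 0 of 38 genes, in a background of 1.75%, with 2 at an unadjusted p under 0.05 (15.6% of all features), Col27a1 at -1.59 (95% interval -2.75 to -0.42) and Col6a1. Without p53 glioma 1, Col27a1 passed at -1.79 ± 0.50 (adjusted p = 0.0473), in a background of 2.74%. The change in cis p53/Nf1 gliomas minus that in p53 Nf1KO gliomas was called for 0 of 38, in a background of 3.94%, and 0 had an unadjusted p under 0.05, against 19.4% of all features. For Col5a3 the interval of the cis p53/Nf1 minus p53 difference was -2.28 to 0.52 and that of the p53 Nf1KO minus p53 difference -1.36 to 0.51, and for Col4a1 they were -2.04 to 0.93 and -1.63 to 0.36, so these arrays leave room for differences between models as large as the ends of these log2 intervals. A gene called in 1 model and not in another is therefore not shown to differ between them.

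Single gliomas of a model differed widely. Among cis p53/Nf1 gliomas the median difference of the 38 genes from the forebrain mean ran from -0.17 in glioma 5 to 1.72 in glioma 4. Glioma 4 held the group's highest value for 18 genes and glioma 3 for 11, and glioma 5 held the lowest for 14, against 16.9%, 6.29% and 18.8% of all features. Among p53 gliomas the median difference ran from -0.01 in glioma 1 to 1.93 in glioma 7. Gliomas 2 and 7 each held the highest value for 10 genes, against 15.3% and 6.33% of all features. Among p53 Nf1KO gliomas the median difference ran from 0.14 in glioma 1 to 0.88 in glioma 3. That glioma held the highest value for 15 genes, against 19.8% of all features. Over all features the median difference of single gliomas stayed between -0.11 and 0.02. The highest gliomas were high for different chains. Cis p53/Nf1 glioma 3 held the interstitial maxima, 10.73 for Col1a1, 10.92 for Col1a2 and 11.91 for Col3a1, and also the highest fibroblast and meninges marker mean of its group, 8.52, and the highest pericyte and smooth muscle marker mean, 9.02. The part of these cells in that glioma's values was not tested.

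**Figure D3:**
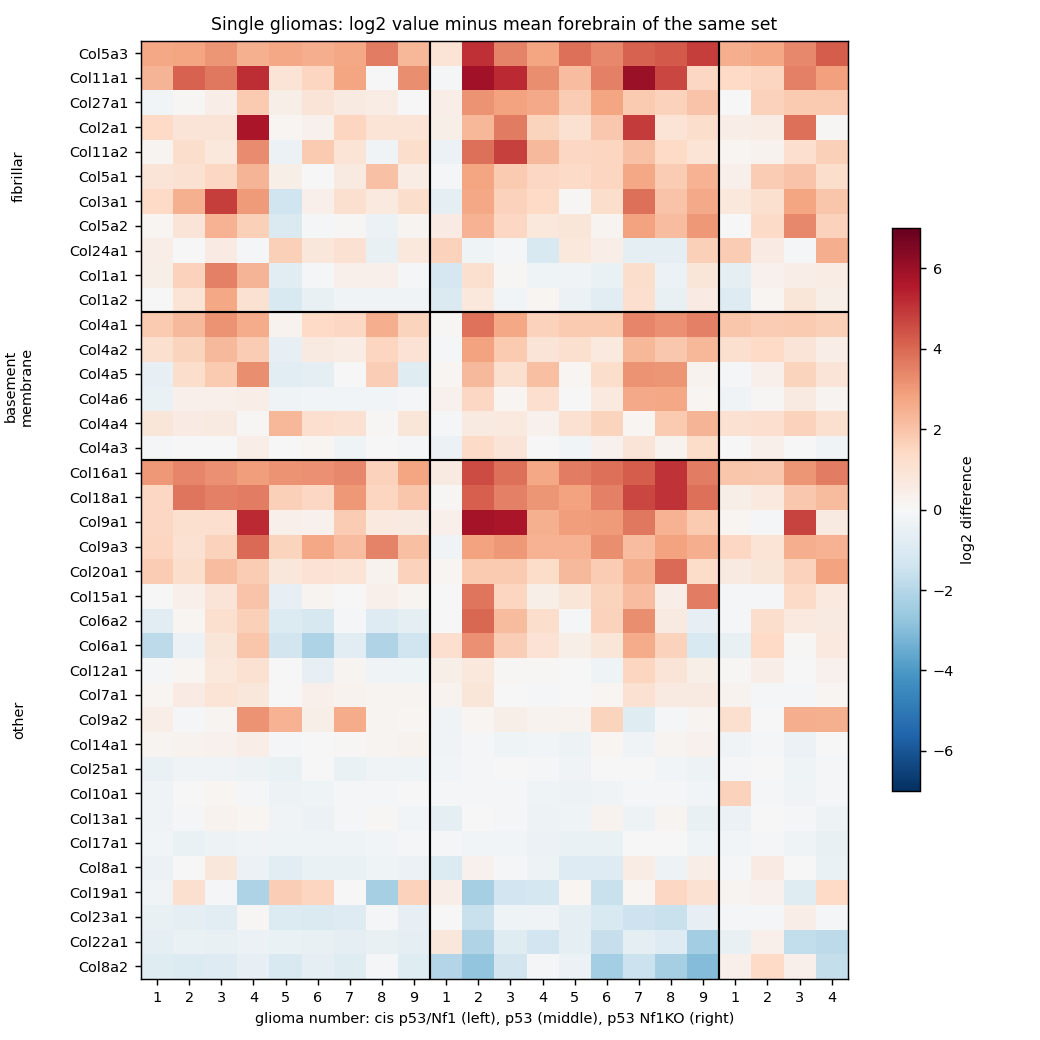
The log2 value of each collagen gene in each of the 22 gliomas minus the mean of the forebrains of its set, on a scale from blue (lower) to red (higher), with genes grouped by class and gliomas by model. Col5a3, Col16a1 and Col4a1 are red in nearly every column, while the rows of Col1a1, Col1a2 and Col6a1 change colour from glioma to glioma, and the column of p53 glioma 1 is pale.

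Glioma 4 of the cis p53/Nf1 model held the maxima of the chains known from cartilage, where type II collagen forms fibrils with types IX and XI. Its values were 13.47 for Col2a1, 13.04 for Col9a1, 10.66 for Col9a2, 11.34 for Col9a3, 11.80 for Col11a1 and 10.92 for Col11a2, the group's highest for all 6. For Col2a1 the other 8 cis p53/Nf1 gliomas lay between 7.87 and 9.27, against 8.19, 7.58 and 7.49 in Z1 forebrains. Without glioma 4 the cis p53/Nf1 difference was 0.87 ± 0.69 for Col2a1 and 0.94 ± 0.84 for Col9a1, against 1.41 ± 0.88 and 1.42 ± 0.96 with it, and neither passed the test either way. In p53 Nf1KO gliomas, glioma 3 stood apart for Col2a1 at 8.28 and Col9a1 at 8.49, while the other 3 gliomas were 4.87, 4.96 and 4.50 for Col2a1. It did not stand apart for the other 4 chains: glioma 4 was close to it for Col9a2 (7.83 beside 7.88), Col9a3 (9.61 beside 9.70) and Col11a1 (7.99 beside 8.65), and higher for Col11a2 (5.99 beside 5.47). Among p53 gliomas Col2a1 was highest in glioma 7, at 9.31, Col9a1 in glioma 2, at 9.60, and Col11a2 in glioma 3, at 9.09. These gliomas were singled out after their values were seen.

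**Figure D4:**
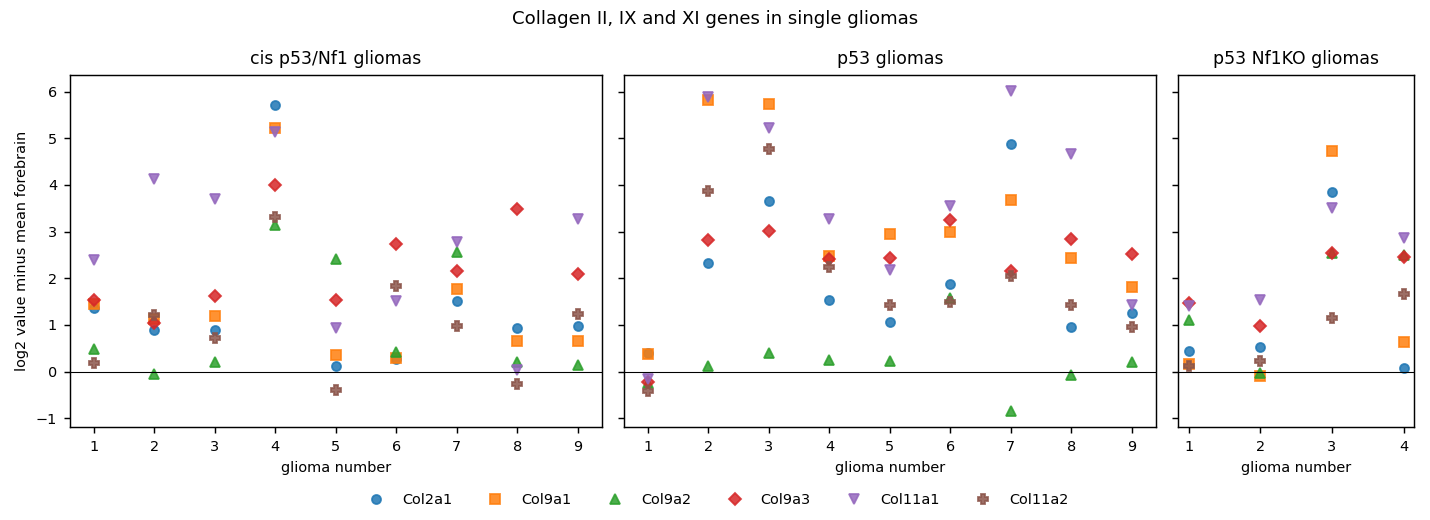
The log2 value minus the mean forebrain of the same set for the 6 genes of types II, IX and XI in each cis p53/Nf1 (left), p53 (middle) and p53 Nf1KO glioma (right). All 6 lie highest in cis p53/Nf1 glioma 4, and Col2a1 and Col9a1 lie highest in p53 Nf1KO glioma 3.

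Chains of 1 collagen type, and Col1a1 with Col3a1, were compared across the gliomas of a model. Of 12 such relations, 6 gene pairs in each of 2 models with 9 gliomas, the pairs Col4a1 with Col4a2 and Col1a1 with Col1a2 were closest. Col4a1 and Col4a2 had a Pearson r of 0.984 (exact permutation p = 1.93e-05, adjusted 1.16e-04) and a Spearman rho of 0.967 (exact permutation p = 1.65e-04) in cis p53/Nf1 gliomas. Among p53 gliomas r was 0.981 (exact permutation p = 1.65e-05, adjusted 1.16e-04) and rho 0.983 (exact permutation p = 4.96e-05). Without the 2 gliomas farthest from the median of Col4a1, r was 0.943 and 0.969, and it was 0.974 in p53 gliomas without glioma 1. Col1a1 and Col1a2 had r of 0.980 in cis p53/Nf1 and 0.959 in p53 gliomas (exact permutation, adjusted p = 1.54e-04 and 2.70e-04), with rho of 0.917 and 0.950 (adjusted exact permutation p = 0.00394 and 0.00141) and, without the 2 farthest gliomas, r of 0.973 and 0.910. Col1a1 and Col3a1 had r of 0.954 and 0.881, and Col6a1 and Col6a2 0.979 and 0.873, with rho of 0.900, 0.833, 0.900 and 0.850, adjusted exact permutation p of r from 2.23e-04 to 0.00256 and of rho from 0.00406 to 0.0124 over these 4 relations, and r without the 2 farthest gliomas from 0.768 to 0.890. Col5a1 and Col5a2 had r of 0.510 in cis p53/Nf1 gliomas (exact permutation, adjusted p = 0.188; rho 0.533, adjusted p = 0.177; 0.821 without the 2 farthest) and 0.792 in p53 gliomas (exact permutation, adjusted p = 0.00851; rho 0.800, adjusted p = 0.0184; 0.900 without the 2 farthest). Col8a1 and Col8a2, the chains of type VIII, had r of -0.06 and -0.31 (exact permutation, adjusted p = 0.870 and 0.440) and rho of 0.0333 and -0.267 (adjusted p = 0.948 and 0.538). Without the 2 farthest gliomas their r was 0.768 and -0.207, so that the value in cis p53/Nf1 gliomas rests on those 2. All points of a model share their array set and normalization. The r values without p53 glioma 1 were 0.945 for Col1a1 with Col1a2, 0.819 for Col1a1 with Col3a1, 0.878 for Col5a1 with Col5a2 and 0.913 for Col6a1 with Col6a2.

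**Figure D5:**
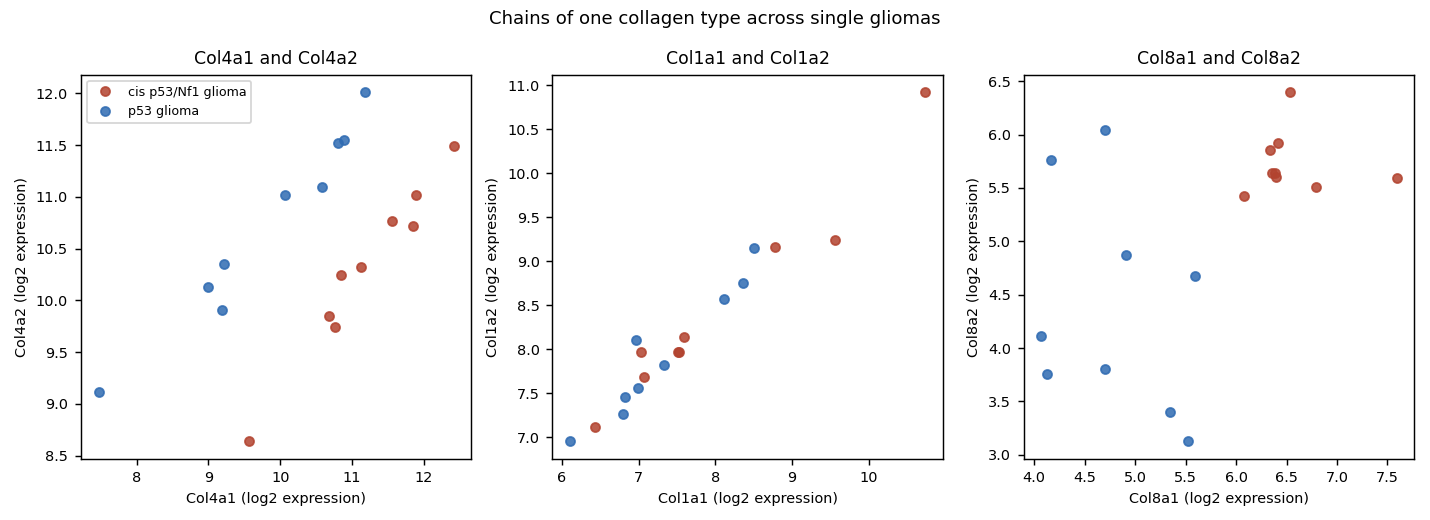
Log2 expression of 2 chains of 1 collagen type against each other in the 9 cis p53/Nf1 (red) and 9 p53 gliomas (blue): Col4a1 and Col4a2, Col1a1 and Col1a2, and Col8a1 and Col8a2. The points of the first pair lie close to a line in each model, those of type I likewise, and those of type VIII do not.

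The genes that make, cross-link and bind collagen were examined as lists. Of 17 measured genes of chain modification and folding (20 listed), 10 rose and 1 fell in the cis p53/Nf1 model and 8 rose in the p53 model, again 8 without p53 glioma 1. In the p53 Nf1KO model 0 were called, with 11 of the 17 differences positive. Over all features 21.9% rose and 20.3% fell in the cis p53/Nf1 model, 17.7% and 20.6% in the p53 model, and 5.23% and 3.04% in the p53 Nf1KO model. The list's median difference was 0.83, 0.42 and 0.35, beside medians near 0 over all features. Plod2, a lysyl hydroxylase, differed by 2.50 ± 0.46 (SE, adjusted p = 7.46e-05), 2.18 ± 0.42 (SE, adjusted p = 3.02e-04) and 0.95 ± 0.49 (SE, adjusted p = 0.219). Crtap, a part of the prolyl 3-hydroxylase complex, differed by 2.23 ± 0.31, 1.23 ± 0.28 and 0.97 ± 0.33, of which the first 2 passed, and Fkbp10, a chaperone of procollagen, by 1.53 ± 0.55, 1.43 ± 0.50 and 0.90 ± 0.58 (adjusted p = 0.0257, 0.0242 and 0.332). The 1 gene that fell was Sec23a, a coat protein of vesicles leaving the endoplasmic reticulum, at -0.51 ± 0.12 in cis p53/Nf1 gliomas. P3h1, a prolyl 3-hydroxylase, differed by 1.19 ± 0.34, 1.44 ± 0.30 and 0.92 ± 0.36, and Plod1, another lysyl hydroxylase, by 1.41 ± 0.39, 1.27 ± 0.35 and 0.93 ± 0.42, each called in the first 2 models. Serpinh1, the collagen chaperone HSP47, did not pass in any model, with 0.67 ± 0.69, 0.24 ± 0.62 and 0.51 ± 0.73. Neither did P4ha1, a catalytic prolyl 4-hydroxylase subunit, with 0.54 ± 0.36, 0.36 ± 0.33 and -0.39 ± 0.38. P4ha2, another such subunit, had the lowest difference of the list in each model, at -0.83, -0.56 and -0.73, all uncalled. Of 7 measured genes of procollagen processing, 2, 1 and 0 rose, counts near those shares of all features, among them Bmp1, which cleaves the C-propeptide, at 1.88 ± 0.40, 1.36 ± 0.36 and an uncalled 0.71 ± 0.43, and Pcolce2, which enhances that cleavage, at 1.62 ± 0.41 in cis p53/Nf1 gliomas.

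Of 6 cross-linking genes, 3 rose in the cis p53/Nf1 model, 4 in the p53 model and 1 in the p53 Nf1KO model (medians 0.81, 1.23 and 0.97), with 4 again in p53 gliomas without glioma 1, where 21.9%, 17.7% and 5.23% of all features rose in the 3 models. Lox, lysyl oxidase, rose in all 3 models, by 1.78 ± 0.63 (SE, adjusted p = 0.0244), 2.70 ± 0.57 (SE, adjusted p = 7.48e-04) and 2.42 ± 0.67 (SE, adjusted p = 0.0252). Loxl2 differed by 0.69 ± 0.79, 3.70 ± 0.71 and 2.28 ± 0.84, passing in p53 gliomas (adjusted p = 3.24e-04). Loxl3, a related oxidase, differed by 1.22 ± 0.37, 1.42 ± 0.33 and 1.03 ± 0.39, and Tgm2, a transglutaminase, by 0.90 ± 0.32, 1.03 ± 0.29 and 0.90 ± 0.34, each passing in the first 2 models. Of 6 genes of fibril binding proteins, Bgn and Fn1 rose and Dcn and Fmod fell in cis p53/Nf1 gliomas, and Bgn and Fn1 rose and Dcn fell in p53 gliomas, with and without glioma 1, beside 20.3% of all features that fell in the cis p53/Nf1 model and 20.6% in the p53 model. Dcn, the proteoglycan decorin, differed by -1.78 ± 0.72, -1.72 ± 0.65 and -0.01 ± 0.77, and it is also a gene of the fibroblast and meninges list. Bgn, biglycan, differed by 1.41 ± 0.55, 2.57 ± 0.50 and 0.76 ± 0.59, Fn1, fibronectin, by 1.42 ± 0.47, 1.56 ± 0.43 and 0.84 ± 0.50, and Fmod, fibromodulin, by -2.47 ± 0.95, -0.88 ± 0.86 and -1.31 ± 1.01. Of 7 measured receptors and uptake genes, 2 rose in the cis p53/Nf1 model, 4 in the p53 model and 1 in the p53 Nf1KO model (medians 0.46, 0.72 and 0.56), and 4 in p53 gliomas without glioma 1, the cis p53/Nf1 count being near the share of all features. Itgb1, the beta chain of the collagen-binding integrins, differed by 2.27 ± 0.30 (SE, adjusted p = 1.21e-06), 1.69 ± 0.27 (SE, adjusted p = 5.48e-05) and 1.00 ± 0.32 (SE, adjusted p = 0.0514). Ddr2, a receptor tyrosine kinase for fibrillar collagen, differed by 1.00 ± 0.43, 1.82 ± 0.39 and 0.91 ± 0.46 and passed in p53 gliomas. Ddr1, its relative, differed by 1.09 ± 0.17, 0.72 ± 0.15 and 0.56 ± 0.18, passing in the first 2 models, and Lair1, an inhibitory collagen receptor of immune cells, by 0.46 ± 0.23, 0.94 ± 0.21 and 0.82 ± 0.25, passing in the last 2. Mrc2, the collagen uptake receptor, did not pass in any model, at -0.17 ± 0.24, 0.06 ± 0.22 and 0.10 ± 0.26.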

How the data were processed

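Total RNA of mouse brain tissue was hybridised as biotin-labelled complementary RNA to Affymetrix Mouse Genome 430 2.0 arrays, per the labels' protocols. The authors deposited log2 expression values for 18328 probe sets on 32 arrays, in 2 tables that are identical (largest difference 0). The summarisation and normalization are not given in the sources used here, nor is what Z1 and Z2 stand for. No depth applies, and the number of arrays limits the precision.

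Groups came from the genotype and title labels. The files' gene IDs were looked up in RefSeq's table of GRCm38.p6, where 17226 probe sets matched 1 gene. Each such gene was represented by its probe set of highest mean, and probe sets without such a match stayed as they were, which left 17297 features. Group means were estimated from the 32 arrays together in limma 3.58.1 (R 4.3.3), with Benjamini-Hochberg adjustment over all features and a threshold of 0.05. Chain pairs were tested with exact permutation tests, two-sided (scipy 1.17.1). The limma script was tested on simulated data. The printed promoter sequences are from RefSeq.

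The members, classes, gene lists and tests were chosen with earlier results of these data known. The named genes were Col1a1, Col1a2, Col3a1, Col4a1, Col4a2 and Col6a1, per model the top 5 called genes in each direction by size of difference, up to 5 called genes a direction per list, and Serpinh1, P4ha1, Plod2, Lox, Bmp1, Ddr2 and Mrc2. Others are given to account for every member. Alternatives were other scalings, filters, probe set rules, thresholds and fits, a replicate block, and leaving out each array.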

Additional observations from a re-analysis of the deposited data

Results flagged for a closer look

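Within groups of 4 to 9 arrays, 8 collagen values lay far from the rest of their group by Dixon's test at its 95% level, out of 64 combinations of a named gene and a group. Chance flags about 1 in 20 such groups. Col9a1, a type IX chain, gave 2 of them: cis p53/Nf1 glioma 4 was highest at 13.04, with the next at 9.59, and p53 Nf1KO glioma 3 was highest at 8.49, with the next at 4.41. Another pair, each lowest of their group, were in p53 glioma 1, the array with forebrain-like markers, at 5.82 for Col18a1 (next 8.53) and 6.94 for Col9a3 (next 9.33). In cis p53/Nf1 glioma 8, Col16a1 was lowest at 10.59, with the next at 11.75. In p53 Nf1KO glioma 1, Col1a1 was lowest at 6.59, with the next at 7.58, and in p53 Nf1KO glioma 3, Col23a1 was highest at 6.17, with the next at 5.60. In Z2 forebrain 2, Col8a2 was lowest at 5.28, with the next at 6.35.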

How the results depend on the processing

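The alternatives moved calls of large and of small differences, while the calls of Col5a3 and Col16a1 were kept in every setting. The cis p53/Nf1 call of Col11a1 was lost in 7 settings. In p53 Nf1KO gliomas the calls of Col4a1 and Col9a3 were lost in 10 and 9 settings. Among others, the replicate block lost the p53 calls of Col18a1 and Col4a2 and the cis p53/Nf1 call of Col9a3. The 1 gene lower in cis p53/Nf1 gliomas, Col25a1, was lost when only the compared groups were fitted, where 3 other genes were called lower (Col8a2, Col17a1 and Col22a1), and the count was 0 at an adjusted p under 0.01, with a 2-fold minimum or with a replicate block. In p53 gliomas the 17 higher genes became 11 at an adjusted p under 0.01 and 8 with the replicate block, and the 3 lower genes 1 with the compared groups alone, 1 at 0.01 and 0 with the block. In p53 Nf1KO gliomas the 4 higher genes became 2 with standardised arrays and 2 at 0.01. With standardised arrays the 8 cis p53/Nf1 calls became 11, with Col4a2, Col4a4 and Col5a1 gained. The 20 p53 calls became 16, with Col2a1, Col4a4, Col5a2 and Col23a1 lost. Leaving out single arrays gave 5 to 8 higher and 0 to 1 lower in cis p53/Nf1, 12 to 21 higher and 1 to 3 lower in p53, and 2 to 6 higher and 0 lower in p53 Nf1KO gliomas, 0 to 2 calls between p53 Nf1KO and p53 gliomas, 0 to 1 between the cis p53/Nf1 and p53 changes, and 0 between the cis p53/Nf1 and p53 Nf1KO changes. Whether the replicate numbers used for the block pair the arrays is not known. Deviations of same-numbered arrays from their group means correlated between -0.33 and 0.38. No differently numbered arrays were set beside them, so these values cannot decide it. With that block 8 of the 20 p53 calls were kept, 6 of the 8 cis p53/Nf1 calls among 10, and 3 of the 4 p53 Nf1KO calls among 6.

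Signs turned in 23 settings, all for uncalled differences, and the cause was not tested. In p53 gliomas Col1a1 was -0.0658 with the replicate block and between -0.22 and 0.37 with single arrays left out, below 0 without Z2 forebrain 4 or p53 glioma 2, 7 or 9 (-0.22, -0.05, -0.07 and -0.02), and Col1a2 was between -0.43 and 0.26, above 0 without Z2 forebrain 1 or 2 or p53 glioma 1, 5, 6 or 8 (0.10, 0.26, 0.09, 0.02, 0.06 and 0.03). In p53 Nf1KO gliomas Col1a1 was between -0.15 and 0.45, lowest without Z2 forebrain 4, and Col1a2 between -0.26 and 0.48, below 0 without Z2 forebrain 4 (-0.26) or glioma 3 (-0.10). In cis p53/Nf1 gliomas Col1a2 was between -0.0364, without glioma 3, and 0.44. In p53 Nf1KO gliomas Col23a1 was -0.0292 with arrays centred on their median, -0.10 with quantile normalization, and -0.19, -0.02, -0.07 and -0.12 without Z2 forebrain 2, 3 or 4 or glioma 3, and Col8a2 was between -0.32 and 0.71, below 0 without Z2 forebrain 2 (-0.18) or glioma 2 (-0.32). Over the named collagen differences, 421 settings of called ones kept the call and 57 lost it, and 10 settings of uncalled ones gained one. Values near the low end of the arrays, such as those of Col14a1, Col17a1 and Col4a3, limit what can be seen for those genes. Some genes called in p53 gliomas were also low on many arrays. Col4a4 and Col22a1 each lay among the lowest 25% of features on 19 of the 32 arrays, Col8a2 on 17, Col4a6 on 16 and Col9a1 on 11. With the lowest 25% of features left out, 18 of the 20 p53 calls remained, without Col22a1 and Col4a4.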

Other observations

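Because cis p53/Nf1 glioma 4 was highest for chains known from cartilage, 14 other genes known from cartilage were read in single gliomas. The list was chosen after the collagen values were seen. It holds matrix genes and the transcription factor genes Sox5, Sox6 and Sox9. In glioma 4, 5 of the 14 lay above all Z1 forebrains, near the 40.8% of all features that did, and 5 were the highest of the group, against 16.9% of all features. In p53 glioma 2, which held the highest Col9a1 of its group, 10 of the 14 lay above all Z2 forebrains (38.9% of all features) and 9 were the highest of the group (15.3% of all features), among them Cnmd at 11.86, Hapln1 at 9.91, Acan at 9.84, Snorc at 9.63 and Matn1 at 8.50. Cnmd was close to that in p53 glioma 3, at 11.83. Sox6 and Sox9, which are not matrix genes, are among the genes above all forebrains in both cis p53/Nf1 glioma 4 and p53 glioma 2, but are not particular to them. Sox6 ran from 9.25 to 11.31 over the cis p53/Nf1 gliomas, against 7.74 to 8.09 in Z1 forebrains. In p53 gliomas other than glioma 1, Sox6 ran from 7.70 to 9.95, against 5.96 to 6.39 in Z2 forebrains. Sox9 was highest in cis p53/Nf1 glioma 8, at 10.82, and in p53 glioma 9, at 9.66. In p53 glioma 1, 1 of the 14 lay above all Z2 forebrains, against 17.2% of all features. These values were not tested.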
